A study of Mus musculus with 23 samples.

Results

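The Dlk1-Meg3 locus of mouse chromosome 12 was described by its DNA methylation, in percent per window, over all windows whose midpoint fell in chr12:109440000-109760000 (GRCm38). The windows were chosen by position alone. There were 82 of them among the 402812 windows of the E7.5 tables and 72 among the 333984 windows of the E6.5 table. The 82 windows at E7.5 were 333 to 9946 bp long (median 3403 bp) and held 42 to 62 CpGs of the reference sequence (median 49), although the deposited windows are described as 100 CpGs.

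The 23 libraries were post-bisulphite adaptor tagging (PBAT) libraries of hybrid embryos between C57BL/6 (B6) and CAST mice, with the maternal strain written first. At E6.5 there were 15 libraries, each from a pool of epiblasts or of extra-embryonic ectoderm (ExE), the trophoblast tissue beside the epiblast. They came from B6/CAST (3 epiblast, 2 ExE), CAST/B6 (3 epiblast, 2 ExE) and matDKO/CAST embryos (2 epiblast, 3 ExE). The matDKO/CAST embryos had Dnmt3a fl/fl Dnmt3b fl/fl mothers carrying Zp3-cre and CAST fathers. The Zp3 promoter drives Cre in growing oocytes, so these embryos inherit a maternal genome from oocytes without both de novo methyltransferases and a functional copy of each gene from the father. Their mothers had a mixed B6/129 background, so matDKO/CAST and B6/CAST embryos also differed in part of the maternal strain sequence. At E7.5 there were 8 libraries of single wild-type embryos, 2 per cross and tissue, in which replicate 1 was female and replicate 2 male. Reads were sorted by parental genome at E7.5, and the E6.5 values combine both alleles.

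Imprinted genes are expressed from 1 parental allele. At this locus Dlk1, which encodes a transmembrane protein related to Notch ligands, and Rtl1, a retrotransposon-derived gene needed in the placenta, are expressed from the paternal allele. Meg3, Rian and Mirg are non-coding transcripts of the maternal allele, and they hold clusters of C/D box snoRNAs and miRNAs. The intergenic differentially methylated region (IG-DMR) upstream of Meg3 acquires methylation in sperm and not in oocytes, and its unmethylated maternal copy is needed for maternal expression of the non-coding RNAs. The Meg3 promoter is known as a secondary DMR, whose paternal copy becomes methylated after fertilisation.

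The order along the plus strand was Dlk1 (ENSMUSG00000040856.17, chr12:109452823-109463336), the IG-DMR, taken as 10 to 15 kb before the Meg3 start, Meg3 (ENSMUSG00000021268.17, chr12:109541001-109571726), Rtl1 on the minus strand (ENSMUSG00000085925.3, chr12:109589193-109600330), Rian (ENSMUSG00000097451.10, chr12:109603940-109661716) and Mirg (ENSMUSG00000097391.8, chr12:109729764-109749460). The annotation placed 66 miRNA genes and 23 snoRNA genes in the locus. The Meg3 promoter was taken as 2 kb on either side of the Meg3 start, and Dlk1 from 2 kb before its start to its end.

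The sequences below show the 2 DMRs of the locus and, beside them, the Dlk1 promoter, which was weakly methylated. They are the 300 bases of the IG-DMR with the most CpGs, and the promoters of Meg3 and Dlk1, 300 bases each around the RefSeq start (GRCm38, plus strand). Capitals mark the CpGs.
IG-DMR, chr12:109527383-109527682: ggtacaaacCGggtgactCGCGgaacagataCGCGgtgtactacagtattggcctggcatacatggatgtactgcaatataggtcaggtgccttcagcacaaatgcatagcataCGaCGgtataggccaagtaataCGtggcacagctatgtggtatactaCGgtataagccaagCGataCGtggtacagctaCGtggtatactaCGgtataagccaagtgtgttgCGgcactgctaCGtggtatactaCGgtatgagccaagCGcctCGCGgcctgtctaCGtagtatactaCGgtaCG
Meg3 promoter, chr12:109540746-109541045: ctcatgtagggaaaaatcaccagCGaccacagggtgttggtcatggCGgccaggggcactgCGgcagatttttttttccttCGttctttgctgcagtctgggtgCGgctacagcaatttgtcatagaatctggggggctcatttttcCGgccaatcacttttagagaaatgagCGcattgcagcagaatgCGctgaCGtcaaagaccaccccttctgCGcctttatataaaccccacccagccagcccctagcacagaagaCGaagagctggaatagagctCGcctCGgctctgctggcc
Dlk1 promoter, chr12:109452573-109452872: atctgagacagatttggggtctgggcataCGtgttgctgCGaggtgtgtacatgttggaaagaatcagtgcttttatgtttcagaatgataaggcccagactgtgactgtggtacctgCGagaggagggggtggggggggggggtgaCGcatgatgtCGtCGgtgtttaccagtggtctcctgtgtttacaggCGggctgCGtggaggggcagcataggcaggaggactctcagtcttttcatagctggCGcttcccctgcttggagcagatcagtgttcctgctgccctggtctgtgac

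The IG-DMR stretch, picked for the most CpGs, held 22 of them and is for that reason not set against promoters. The Meg3 promoter held 13 CpGs and the Dlk1 promoter 9, against a median of 7 over 32851 RefSeq promoters of the same length. Within the IG-DMR stretch the 16 bases tggtatactaCGgtat occurred 3 times, and these were the only 3 copies on the plus strand of chromosome 12. The hexamer TGCCGC, which the zinc finger protein ZFP57 binds when it is methylated, was counted on both strands. It occurred 1 time in the IG-DMR stretch, 1 time in the Meg3 promoter and 0 times in the Dlk1 promoter, and 11.6% of all promoters of this length and 1.74% of 300-base tiles of chromosome 12 held it. Among the 82 windows of the locus, 27 held the hexamer. These windows are mostly longer than 300 bases, and the share over windows of like length elsewhere was not counted. The highest count, 4, was in the IG-DMR window chr12:109527111-109528379, and the second IG-DMR window, chr12:109528391-109530547, held 3, as did 1 window between Dlk1 and the IG-DMR.

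The tables used here list percentages alone. Read depth per window was therefore not known, and counting intervals were not computed. Replicate libraries correlated over windows with r of 0.934 to 0.947 at E7.5 and 0.607 to 0.9 at E6.5, and no pair was identical. As a check of the tissue labels at E7.5, the window at the start of Elf5, a trophoblast factor silenced by methylation in the epiblast, was 22.0 percentage points higher in epiblast, and the windows at the starts of the pluripotency genes Pou5f1 and Nanog were 20.8 and 13.4 points higher in ExE (limma, Benjamini-Hochberg adjusted p = 0.00030, 0.00020 and 0.0016, n = 4 libraries per tissue). Of all windows, 71.1% had a difference at or below that of Elf5. At E6.5 Pou5f1 and Nanog were 35.3 and 24.9 points higher in ExE (adjusted p = 0.0075 and 0.0377 by limma), and Elf5 was 9.07 points higher in epiblast without passing the threshold (adjusted p = 0.196). Nothing in the labels says that E6.5 pools shared no animals or litters, so p-values measure the spread between these libraries.

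At E7.5 the maternal and paternal alleles were compared first, to ask where along the locus methylation depended on the parent of origin. Both IG-DMR windows carried high paternal and low maternal methylation in both tissues and both crosses, and the window just inside Meg3 did so in ExE. Past the first Meg3 body window the contrast turned the other way in ExE, up to Mirg, with higher values on the maternal allele over many windows, and before Meg3 the paternal allele had the higher values over many windows back to Dlk1.

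In ExE, the maternal allele of the first IG-DMR window (chr12:109527111-109528379) was methylated at 29.7% and 28.8% in the B6/CAST libraries and at 6.4% and 10.2% in the CAST/B6 libraries. Its paternal allele was at 95.5%, 86.7%, 86.8% and 94.5% in the same order. No maternal value came near a paternal one. The maternal minus paternal difference was -72.1 points (SE 4.01, n = 4 libraries; limma, Benjamini-Hochberg adjusted p = 0.0298).

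The second IG-DMR window (chr12:109528391-109530547) had maternal values of 9.3% and 16.4% in B6/CAST ExE and 6.1% and 2.9% in CAST/B6 ExE. The paternal values were 80.3%, 82.0%, 88.1% and 89.3%. The difference was -76.2 points (SE 3.93; adjusted p = 0.0286 by limma with Benjamini-Hochberg adjustment), and here too the alleles did not overlap.

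In epiblast the first IG-DMR window was at 16.2%, 17.5%, 5.7% and 6.9% on the maternal allele (B6/CAST replicates, then CAST/B6 replicates) and at 93.8%, 78.6%, 95.2% and 100.0% on the paternal allele. The second was at 6.0%, 8.3%, 5.4% and 2.0% on the maternal allele and at 89.5%, 86.4%, 93.5% and 68.8% on the paternal allele. The alleles were apart in every epiblast library. The differences were -80.3 points (SE 4.64) and -79.1 points (SE 5.05), with adjusted p of 0.0302 and 0.0386 (limma, Benjamini-Hochberg, n = 4 libraries).

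These 2 windows were all that passed the adjusted threshold of 0.05 in epiblast, among 52 windows of the locus with both alleles in all 4 libraries. Over all windows tested, 0.0021% were called with the paternal and 0.00629% with the maternal allele higher. At an unadjusted p under 0.05, 6 windows had the paternal and 5 the maternal allele higher, against 2.54% and 2.33% of all windows. In ExE 3 of 71 windows passed, all with the paternal allele higher, against 0.0022% of all windows with the paternal and 0.00503% with the maternal allele higher. The third was the Meg3 promoter window downstream of the start. All of these calls were lost on leaving out any 1 library of the tissue, when 0 windows of the locus were called, while the IG-DMR differences stayed between -84.5 and -70.1 points.

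The Meg3 promoter segment held 2 windows at E7.5. The window chr12:109541028-109542267, which begins just after the Meg3 start, was the least methylated maternal region of the locus in ExE, at 3.7%, 0.0%, 0.0% and 0.0%, with paternal values of 67.8%, 74.0%, 81.2% and 88.3%. The difference was -76.9 points (SE 4.19, n = 4 libraries; limma, Benjamini-Hochberg adjusted p = 0.0298). In epiblast only 1 library had both alleles of this window (0.0% maternal, 84.6% paternal), so it was not tested there.

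The window that holds the Meg3 start (chr12:109539309-109541027) had maternal values of 17.8%, 33.5%, 3.0% and 48.8% in ExE and paternal values of 71.4%, 68.5%, 63.9% and 86.2%. The maternal allele was lower in 4 of 4 libraries, but its values were spread widely, and the difference of -46.7 points (SE 5.74) did not pass the adjustment (limma, Benjamini-Hochberg adjusted p = 0.777). In epiblast its maternal values were 9.0%, 3.1%, 8.3% and 12%, and the 3 paternal values present were 85.4%, 78.1% and 93.3%. Epiblast maternal methylation at the Meg3 start was thus within 3.1 to 12%, and ExE maternal methylation within 3.0 to 48.8%.

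**Figure D1:**
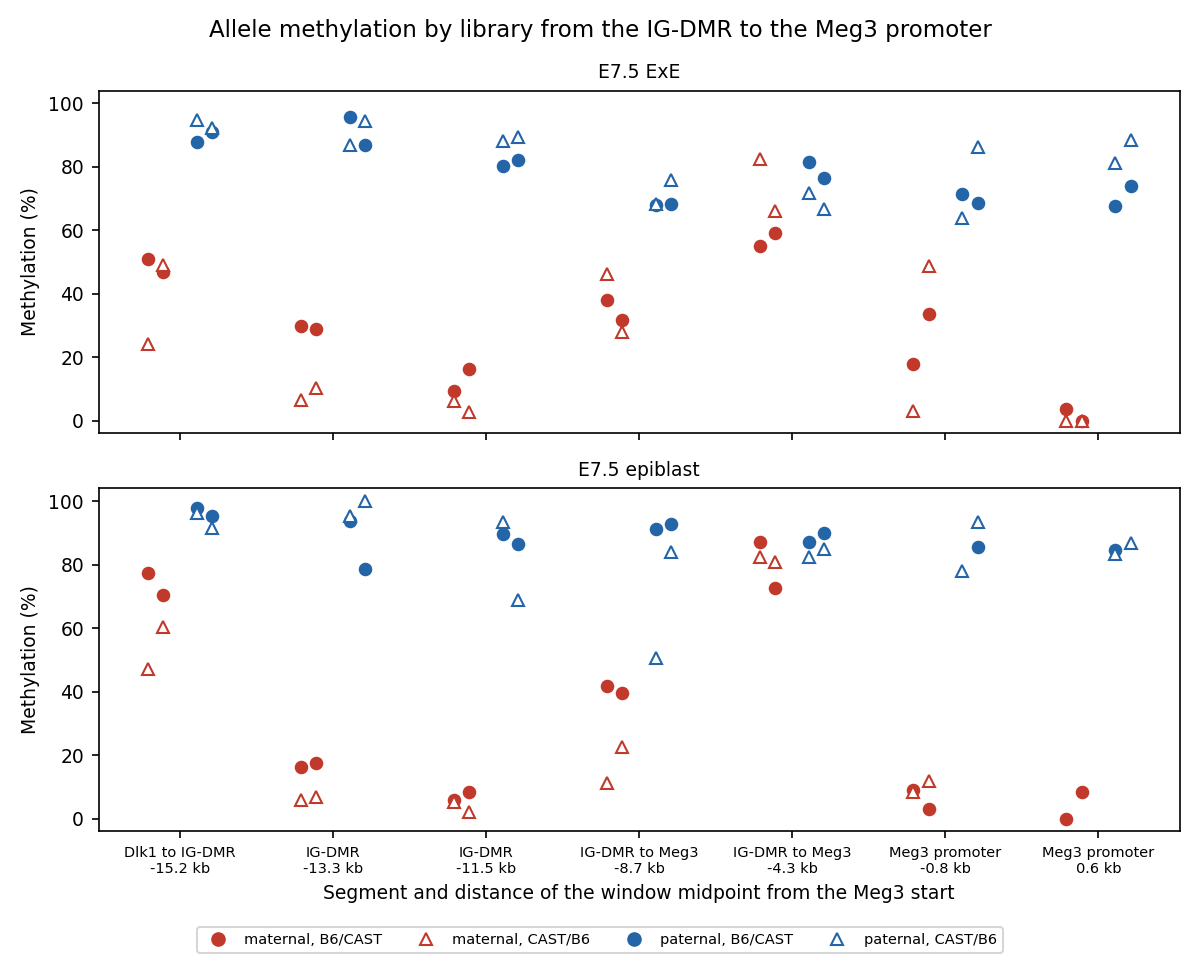
Methylation (%) of the maternal (red) and paternal (blue) allele in each E7.5 library, for the 7 windows from just upstream of the IG-DMR to the Meg3 promoter; filled circles are B6/CAST, open triangles CAST/B6, and the horizontal axis gives the segment and the distance of the window midpoint from the Meg3 start. The alleles lie apart at both IG-DMR windows in ExE and epiblast, and the maternal values of the Meg3 start window spread from 3.0 to 48.8% in ExE.

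The allelic contrast was also seen in the windows next to the 2 IG-DMR windows. Both neighbours overlap the limits taken for the IG-DMR (chr12:109526001-109531001), so contrast outside these limits cannot be read from them. The window just before (chr12:109524555-109527110) differed by -48.7 points in ExE and -31.4 points in epiblast. Its paternal allele was at 87.7 to 97.8% in all 8 libraries, and its maternal allele at 24.1 to 50.8% in ExE and 47.3 to 77.3% in epiblast. The window just after (chr12:109530548-109534155) differed by -34.1 points in ExE and -51.0 points in epiblast. The direction held in 4 of 4 libraries of each tissue at both windows, but neither passed the adjustment in either tissue (limma, Benjamini-Hochberg adjusted p of 0.329 to 0.941).

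The mean IG-DMR difference was larger in CAST/B6 than in B6/CAST in both tissues. Over both windows, ExE libraries differed by -68.4 and -61.8 points in B6/CAST and by -81.2 and -85.3 points in CAST/B6, and epiblast libraries by -80.6 and -69.6 points in B6/CAST and by -88.8 and -79.9 points in CAST/B6. The ExE crosses did not overlap, and the epiblast crosses overlapped. The allele of the B6 strain against that of the CAST strain was tested with the parent of origin taken out. In ExE it was 10.2 points higher at the first IG-DMR window (SE 4.01, limma, unadjusted p = 0.0429, Benjamini-Hochberg adjusted p = 0.562), and 0 of 71 windows of the locus were called by strain, with 4 higher on the B6 and 3 higher on the CAST allele at an unadjusted p under 0.05, against 5.25% and 3.48% of all windows. In epiblast 0 of 52 were called, with 5 higher on the B6 and 1 higher on the CAST allele at an unadjusted p under 0.05, against 3.91% and 2.74% of all windows.

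Other regions that carry methylation of sperm origin are given for comparison in ExE. The window upstream of H19 (chr7:142580361-142582087) was at 7.74 ± 4.36% on the maternal and 87.3 ± 4.61% on the paternal allele, and the middle of 3 windows upstream of Rasgrf1 (chr9:89878612-89880482) at 6.71 ± 3.68% and 87.5 ± 5.52% (SD, n = 4). The Rasgrf1 windows on either side differed less, by -53.1 and -53.9 points, against -80.8 points at the middle one. The IG-DMR as a segment was at 13.7 ± 8.54% and 87.9 ± 3.09% in ExE and at 8.50 ± 4.13% and 88.2 ± 5.70% in epiblast (SD, n = 4). The difference between these regions was not tested.

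The Dlk1 start was weakly methylated and could not be read by allele. The window that holds it (chr12:109451278-109453323) had no allele values in any library. With both alleles together it was at 4.0%, 10.3%, 5.9% and 9.6% in epiblast and at 13.0%, 20.3%, 11.7% and 17.3% in ExE, so every ExE library was above every epiblast library. The next window (chr12:109453324-109453656), the most CpG-dense of the locus with 48 CpGs in 333 bp, was at 0.7 to 4.3% in all 8 libraries.

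Further into Dlk1, 4 windows had both alleles in all ExE libraries, and the paternal allele was higher in 4 of 4 libraries at 2 of them and in 3 of 4 at the others. At chr12:109460494-109462985 the maternal minus paternal differences of the 4 ExE libraries were -29.8, -14.9, -25.9 and -25.4 points, with a mean of -24.0 (SE 4.37). At chr12:109459628-109460458 they were -10.9, -36.0, -28.9 and -20.8 points, with a mean of -24.2 (SE 5.37). Both held the same direction in 4 of 4 libraries without passing the adjustment (limma, Benjamini-Hochberg adjusted p = 0.777 for both). At the other windows the means were -2.40 points (chr12:109453657-109456399, with 11.7 points in CAST/B6 replicate 1) and -20.5 points (chr12:109456456-109459623, with 2.18 points in CAST/B6 replicate 2). In epiblast 1 of the 6 Dlk1 windows had both alleles in all 4 libraries, and it differed by -17.8 ± 14.7 points (SD, n = 4). On leaving out 1 library the value of the Dlk1 segment ranged from -22.5 to -9.64 points. The latter was without B6/CAST replicate 2, when the window chr12:109459628-109460458, complete in the remaining libraries, entered the segment.

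From the upstream end to the Meg3 promoter, 17 of 30 ExE windows had the paternal allele higher in 4 of 4 libraries and 0 had the maternal allele higher. Over all windows, 6.27% had the paternal and 6.32% the maternal allele higher in 4 of 4 libraries. In epiblast 7 of 23 windows of this stretch were higher on the paternal allele in 4 of 4 libraries, against 6.0% of all windows. The 16 windows between Dlk1 and the IG-DMR differed by -10.6 ± 5.55 points in ExE. On the 14 of them that were complete in epiblast the difference was -12.4 ± 4.82 points in ExE and -4.92 ± 3.67 points in epiblast (SD, n = 4 libraries). The median epiblast window was at -2.91 points, the window next to the IG-DMR was the lowest at -31.4 points, and 4 of the 14 had the higher maternal mean.

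Within the Meg3 body the sign turned. The first Meg3 body window (chr12:109542268-109545536), next to the promoter, still had the higher paternal values in ExE, with differences of -27.6, -8.3 and -29.6 points in 3 libraries and no value in CAST/B6 replicate 2. Of the 50 windows from the Meg3 body onward, 41 had both alleles in all 4 ExE libraries. Of these, 30 had higher maternal methylation in 4 of 4 libraries and 0 had higher paternal methylation in 4 of 4. The maternal mean was higher at 41 of 41, and the share of all windows with a higher maternal mean was not computed. Of 7 windows with values in fewer libraries, 6 had the higher maternal and 1 the higher paternal mean. Per library, the maternal minus paternal difference over the 41 windows was 13.5 and 16.8 points in B6/CAST and 14.997 and 15.8 points in CAST/B6. The maternal allele stood at 83.9 ± 1.34% and the paternal allele at 68.7 ± 1.74% (SD, n = 4). None of these 41 windows passed the adjusted threshold alone. At an unadjusted p under 0.05 by limma, 29 windows of the whole locus had the maternal and 17 the paternal allele higher in ExE, of 71 tested, against 3.15% and 3.22% of all windows.

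Among the genes of this stretch, Rian, the host of the snoRNA cluster, had 11 ExE windows, with the maternal allele higher in 4 of 4 libraries at 9 of them. Its differences by library were 16.5 and 16.2 points in B6/CAST and 14.5 and 19.6 points in CAST/B6. Mirg, the host of a miRNA cluster, had the maternal allele higher in 4 of 4 ExE libraries at 6 of 6 windows, with differences by library of 12.1, 16.1, 19.04 and 18.4 points. The Meg3 body differed less, by 8.90 ± 3.96 points over the 5 of its 8 windows that were complete (SD, n = 4). It differed by 2.76 points without CAST/B6 ExE replicate 2, when windows complete in the other 3 libraries entered, among them the first Meg3 body window.

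The single largest maternal values over paternal ones in ExE were at Rtl1 and between Rian and Mirg. At Rtl1 (chr12:109595702-109599479, within the gene) the maternal allele was at 82.7%, 88.9%, 93.5% and 94.7% and the paternal allele at 51.8%, 73.0%, 37.5% and 59.7%, a difference of 34.5 points (SE 5.31). This window thus had the lower methylation on the paternal allele in every ExE library, although the difference did not pass the adjustment (limma, Benjamini-Hochberg adjusted p = 0.777). Of the other 3 Rtl1 windows, 1 had the maternal allele higher in 3 of 3 ExE libraries with values, 1 in 1 of 2 libraries, and 1 had no value. Between Rian and Mirg, chr12:109673060-109679503 differed by 33.7 points (SE 4.67), with the maternal allele at 84.2 to 89.6% and the paternal allele at 35.9 to 63.5%.

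In epiblast the same stretch was highly methylated on both alleles, at 90.5 ± 2.01% on the maternal and 83.7 ± 1.03% on the paternal allele over 29 windows (SD, n = 4). Maternal methylation was higher in 4 of 4 libraries at 6 of 29 windows and paternal methylation at 0, against 5.75% and 6.0% of all windows. The largest epiblast value lay in Rian, at chr12:109614903-109618183, where the maternal allele was at 87.4%, 88.3%, 94.1% and 96.9% and the paternal allele at 60.1%, 54.8%, 50% and 52.3%. Its alleles did not overlap, and the difference of 37.4 points (SE 4.09) did not pass the adjustment (limma, Benjamini-Hochberg adjusted p = 0.565). The 8 complete Rian windows of 11 differed by 11.6 ± 1.65 points in epiblast, with values between 9.33 and 13.0 points in the 4 libraries. Their median was 6.69 points, 2 of them stood at 37.4 and 25.6 points, and 2 had the higher paternal mean. The difference over the 5 complete Mirg windows ranged by library from -5.01 to 16.9 points.

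**Figure D2:**
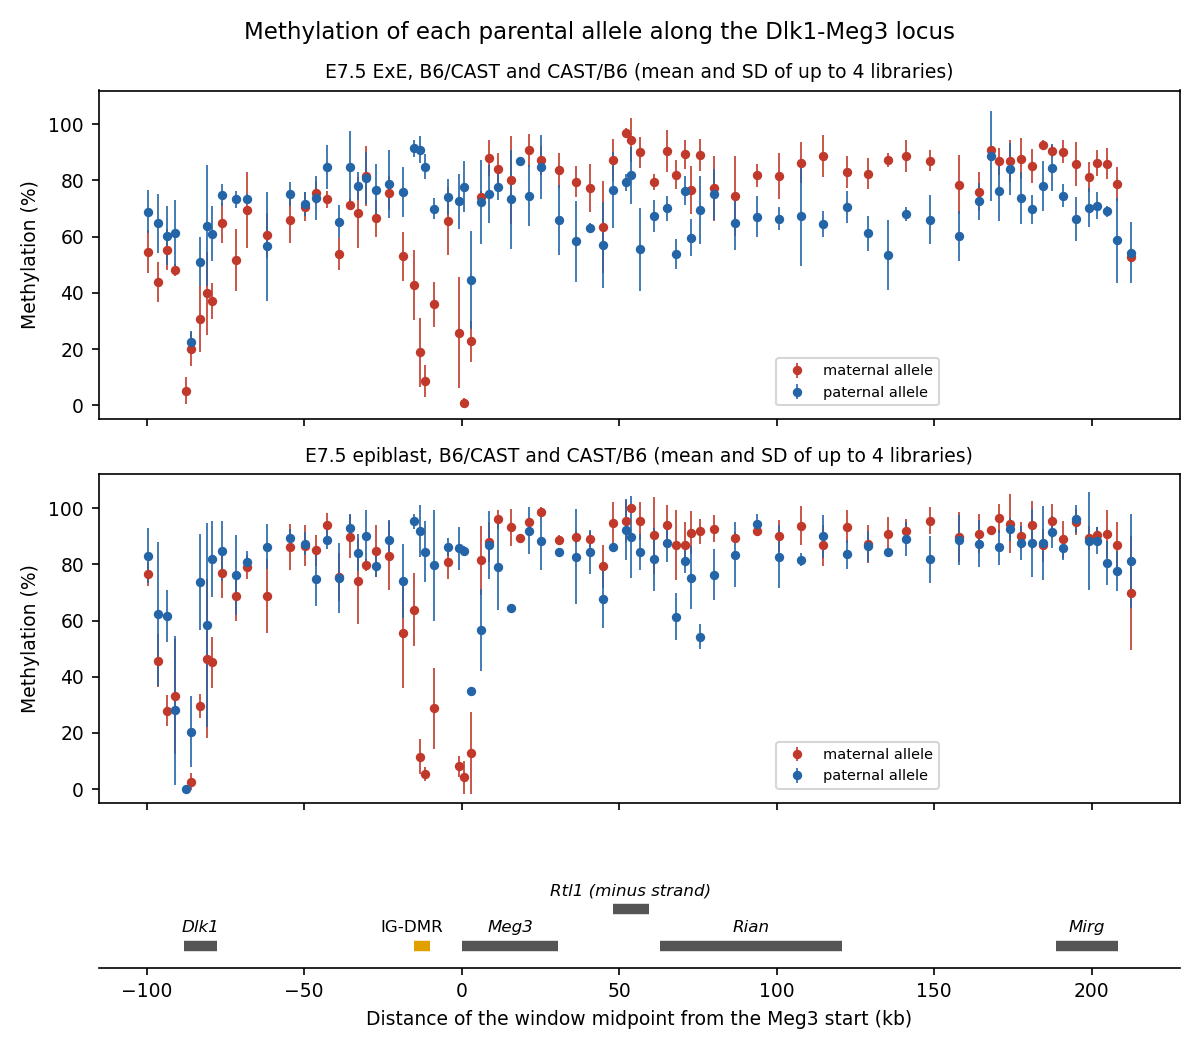
Methylation (%) of the maternal (red) and paternal (blue) allele against distance from the Meg3 start (kb) in E7.5 ExE (top) and epiblast (middle), as the mean and SD of up to 4 libraries per window (no bar where 1 library had a value), with the genes and the IG-DMR to scale below. The maternal allele dips at the IG-DMR and the Meg3 promoter in both tissues, and the paternal allele lies below the maternal one over most windows past Meg3 in ExE.

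**Figure D3:**
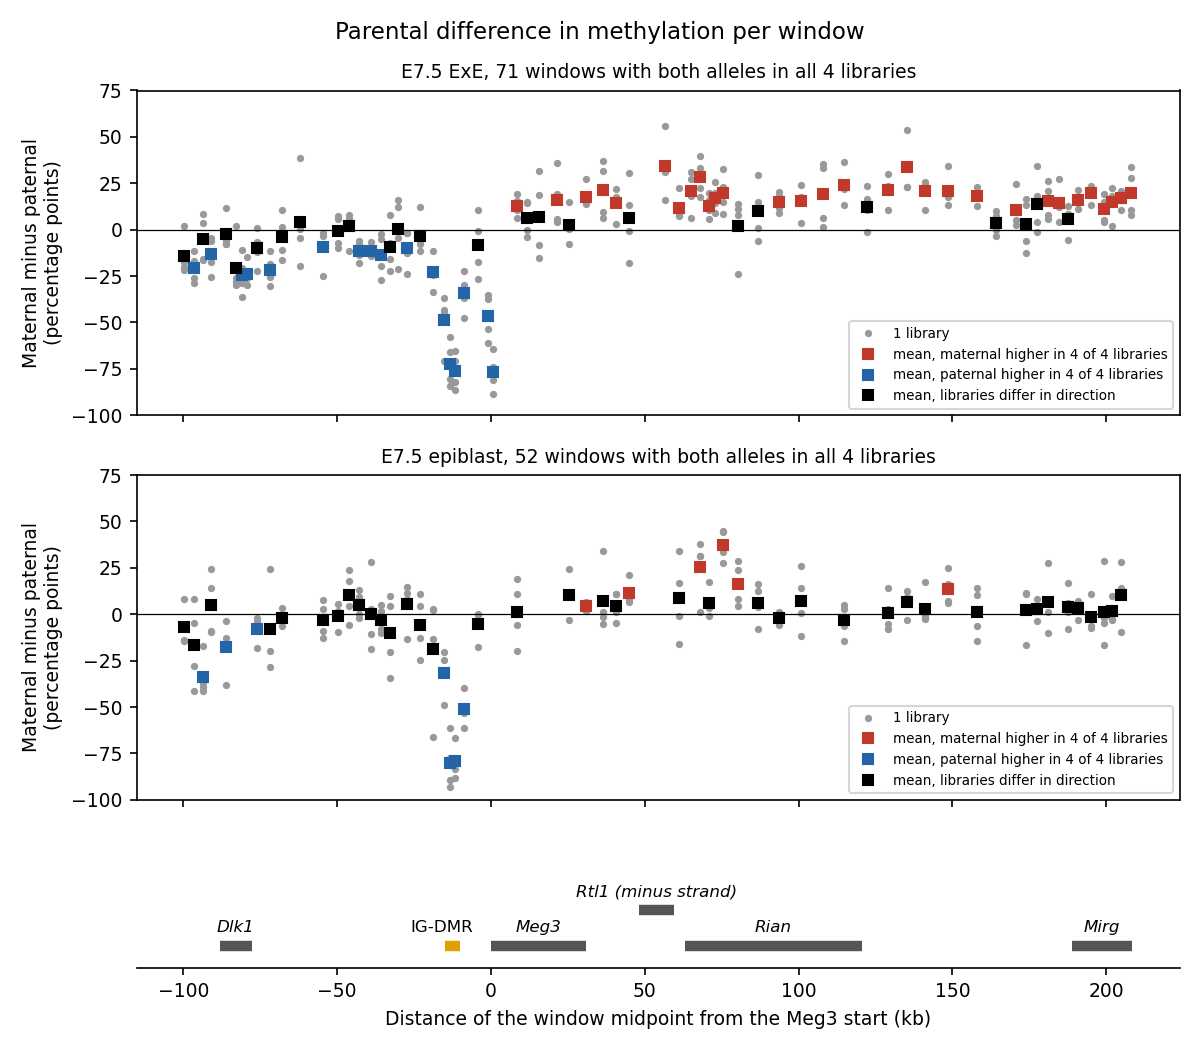
Maternal minus paternal methylation (percentage points) per window against distance from the Meg3 start (kb), for the 71 ExE and 52 epiblast windows with both alleles in all 4 libraries; grey points are libraries, squares are means, red and blue where the maternal or paternal allele was higher in 4 of 4 libraries. In ExE the 30 red windows lie from the Meg3 body onward and the 17 blue ones end at the Meg3 promoter, and in epiblast 6 are red and 7 are blue.

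The pattern was also read by the small RNA genes the windows hold. The maternal mean was higher at all 41 complete ExE windows past the Meg3 promoter. The ExE counts below follow from this and do not set windows with small RNA genes apart. The share of all windows with a higher maternal mean was not computed. Past the Meg3 promoter, 20 of the 26 windows with 1 or more miRNA genes had both alleles in all 4 ExE libraries, and the maternal mean was higher at 20 of these 20, with a median difference of 14.8 points. Of the other 6, the first Meg3 body window had the higher paternal mean, 4 had a higher maternal mean and 1 had no value. Among complete ExE windows the maternal mean was also higher at 8 of 8 with snoRNA genes (median 19.8 points) and 14 of 14 with neither (median 14.99 points). In epiblast it was higher at 15 of 16 complete windows with miRNA genes (median 4.15 points), 5 of 7 with snoRNA genes (median 6.15 points, lowest -3.35) and 7 of 7 with neither (median 7.06 points). The windows with snoRNA genes were less CpG-dense, with a median of 7.91 CpGs per kb against 14.3 in windows with miRNA genes, and no test was made between these groups.

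The tissues were then compared for the parental difference itself, over the 52 windows with both alleles in every library of both tissues. By the interaction, 0 of 52 windows passed the adjusted threshold (limma, Benjamini-Hochberg, 0.0% of all windows), and 14 had an unadjusted p under 0.05, with 10 more positive in ExE and 4 more positive in epiblast, against 2.73% and 2.68% of all windows. In 29 shared windows from the Meg3 body onward the mean difference was 15.3 ± 2.22 points in ExE (13.7 to 18.5 points by library) and 6.78 ± 1.98 points in epiblast (4.93 to 9.07 points; SD, n = 4). The ranges of the libraries did not overlap. The mean was larger in ExE at 25 of the 29 windows, against 50.1% of all windows, and at 6 every ExE library was above every epiblast library, against 1.39% of all windows. Epiblast libraries had more missing allele values, and the part of this in the result was not tested.

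At the IG-DMR itself the interaction was 8.22 points (SE 5.94) at the first and 2.88 points (SE 6.33) at the second window, neither past the threshold (limma, Benjamini-Hochberg adjusted p = 0.924 and 0.986). On leaving out 1 library the first ranged from 4.09 points (without B6/CAST epiblast replicate 1) to 12.3 points and the second from -2.46 to 8.22 points. The IG-DMR differences of the libraries overlapped between the tissues, from -85.3 to -61.8 points in ExE and from -88.8 to -69.6 points in epiblast.

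**Figure D4:**
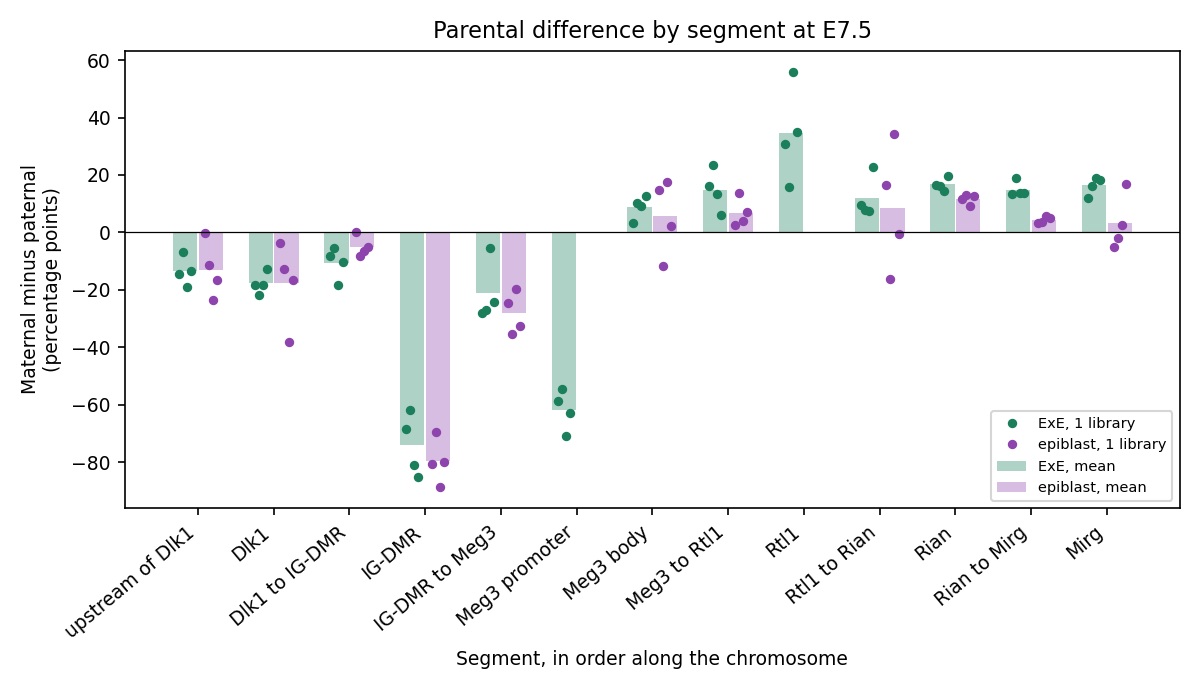
Maternal minus paternal methylation (percentage points) by segment in order along the chromosome at E7.5; bars are means and points single libraries, green for ExE and purple for epiblast, over windows with both alleles in all 4 libraries (none for the Meg3 promoter and Rtl1 in epiblast). The IG-DMR libraries lie between -88.8 and -61.8 points in both tissues, and the Rian to Mirg libraries lie between 13.5 and 18.9 points in ExE and between 3.24 and 5.82 points in epiblast.

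With both alleles together, epiblast was more methylated than ExE over most windows of the locus at E7.5, while 5 windows at and before the IG-DMR were more methylated in ExE. By limma with the Benjamini-Hochberg adjustment, 51 of 82 windows were higher in epiblast and 5 in ExE, against 82.9% and 1.3% of all windows. The median difference was 10.1 points in the locus and 16.5 points over all windows. Every epiblast library was above every ExE library at 41 windows and below at 2, against 73.8% and 1.35% of all windows.

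All 5 windows that were higher in ExE lay between the upstream end and the IG-DMR. They were 2 windows just upstream of Dlk1 (chr12:109446070-109448648, 23.4 points, and chr12:109448655-109451225, 19.5 points), the Dlk1 start window (8.12 points, SE 2.77, adjusted p = 0.0221), the Dlk1 window chr12:109459628-109460458 (11.8 points, adjusted p = 0.0246) and the first IG-DMR window (11.2 points, SE 3.97, adjusted p = 0.0261; limma, Benjamini-Hochberg). The first of these was at 29.9%, 33.4%, 30.4% and 26.4% in epiblast and at 46.5%, 59.0%, 57.5% and 50.5% in ExE. Its parental difference in epiblast was -33.7 points (SE 5.23; limma, unadjusted p = 0.00053, adjusted p = 0.941), while in ExE the paternal allele was higher in 2 of 4 libraries.

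The first IG-DMR window with both alleles was at 43.4%, 39.5%, 23.7% and 34.8% in epiblast and at 63.3%, 47.7%, 38.9% and 36.2% in ExE, so its tissues overlapped. The second IG-DMR window and both Meg3 promoter windows did not pass the threshold between tissues. The Meg3 promoter segment was at 41.2 ± 5.88% in epiblast and 40.04 ± 8.68% in ExE (SD, n = 4). The largest difference with epiblast higher in the locus was 20.2 points, at chr12:109484028-109488811 between Dlk1 and the IG-DMR (limma, Benjamini-Hochberg adjusted p = 0.0007). Epiblast was also higher by 10.4 points at the window shared by the starts of Rtl1 and Rian and by 6.63 points at the Mirg start (adjusted p = 0.0062 and 0.0363).

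Once each library's mean over the autosomes was subtracted, 32 windows of the locus passed the threshold and all 32 were lower in epiblast, against 20.8% of all windows called lower. Over all windows 72972 were called higher and 79745 lower of 383556. Before this subtraction, the mean over all autosomal windows tested was 73.9 ± 1.65% in epiblast and 57.6 ± 1.66% in ExE (SD, n = 4).

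At E6.5 the wild-type tissues of both crosses were compared on the other set of windows. Of 64 windows with values in every wild-type library, 25 were higher in epiblast and 0 in ExE (limma, Benjamini-Hochberg), against 55.5% and 0.623% of all windows, and the median difference was 11.2 points against 16.6 points over all windows. The count of 25 fell to 9 without B6/CAST ExE replicate 1, to 13 without CAST/B6 epiblast replicate 3, to 14 without CAST/B6 ExE replicate 2, and to 15 without B6/CAST ExE replicate 2 or the unnumbered B6/CAST epiblast library. With library means subtracted 7 windows passed, all lower in epiblast, against 6.49% of all windows called lower. At 11 of the 64 every epiblast library was above every ExE library and at 0 below, against 17.1% and 0.345% of all windows. The largest was 27.3 points at the 3' end of Dlk1 (chr12:109461242-109464816), where the 6 wild-type epiblast libraries ran from 68.6 to 91.9% and the 4 ExE libraries from 41.1 to 63.3%. The Dlk1 start window (chr12:109450093-109453254) was at 0.0 to 16.7% in epiblast and 0.0 to 21.7% in ExE, with a difference of -2.59 points (SE 4.52; adjusted p = 0.634).

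The days are given side by side, without a test, because their windows differ. The whole locus was at 77.9 ± 3.13% in E6.5 epiblast (n = 6) and 75.2 ± 0.93% in E7.5 epiblast (n = 4), and at 68.3 ± 4.46% in E6.5 ExE (n = 4) and 67.4 ± 0.91% in E7.5 ExE (SD, n = 4). The Dlk1 segment was at 32.8 ± 2.95% and 28.4 ± 1.86% in epiblast and at 30.3 ± 4.69% and 30.7 ± 2.07% in ExE. The IG-DMR segment was at 65.5 ± 13.4% at E6.5 and 33.8 ± 6.65% at E7.5 in epiblast, and at 58.9 ± 9.99% and 41.4 ± 5.16% in ExE, where the first E6.5 window begins further upstream than the first E7.5 one. At E6.5, 1 epiblast and 1 ExE library had no value at the central window, so their level is that of the upstream window alone. Mirg was at 90.6 ± 3.87% and 85.3 ± 0.77% in epiblast and at 80.4 ± 6.74% and 75.5 ± 0.98% in ExE, where the least methylated stretch at the end of Mirg counts as Mirg at E7.5 and as past Mirg at E6.5.

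The 2 E6.5 windows of the IG-DMR were read in every group. The window chr12:109527610-109529407, central in the IG-DMR, was at 41.0% and 23.4% in B6/CAST epiblast (the third library had no value), at 61.9%, 38.3% and 81.8% in CAST/B6 epiblast, and at 5.0% and 14.6% in matDKO/CAST epiblast. In ExE it was at 37.5% and 51.1% in B6/CAST, at 62.5% in the single CAST/B6 library with a value, and at 41.7%, 45.5% and 3.6% in matDKO/CAST. In epiblast both matDKO/CAST values were below every wild-type value, whereas in ExE 2 of 3 lay among the B6/CAST values. The missing B6/CAST value kept the window out of the epiblast test, and in ExE the difference of -14.1 points (SE 13.9) did not pass (limma, Benjamini-Hochberg adjusted p = 0.509). On leaving out 1 library it ranged from -21.7 to -0.72 points, the latter without matDKO/CAST replicate 3.

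The other IG-DMR window, chr12:109525792-109527609, was at 84.1%, 78.1% and 76.7% in B6/CAST epiblast, at 62%, 72.7% and 88.2% in CAST/B6 epiblast and at 87.0% in the 1 matDKO/CAST epiblast library with a value. In ExE it was at 73.4% and 55.6% in B6/CAST, at 73.8% and 43.7% in CAST/B6 and at 34.7% and 51.1% in 2 matDKO/CAST libraries. The single matDKO/CAST epiblast value lay within the wild-type range of this window, and matDKO/CAST was not tested there in epiblast.

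At the Meg3 start, chr12:109540937-109542341 was at 37.2%, 0.0% and 42.8% in B6/CAST epiblast, at 44.0%, 58.6% and 14.3% in CAST/B6 epiblast and at 57.9% in 1 matDKO/CAST epiblast library. In ExE it was at 51.4% and 45.6% in B6/CAST, at 29.0% in the 1 CAST/B6 library with a value and at 10.7%, 22.2% and 12.5% in matDKO/CAST. Every matDKO/CAST ExE library was below both B6/CAST ones, and the difference of -33.4 points (SE 13.6) did not pass the adjustment (limma, Benjamini-Hochberg adjusted p = 0.155). The window before it, chr12:109539111-109540936, was at 58.5% and 56.7% in B6/CAST ExE and at 41.9%, 63.7% and 53.8% in matDKO/CAST ExE, so these groups overlapped. The CAST/B6 ExE library with a value was at 46.7% (n = 1). In epiblast the means of this window were 28.2% in B6/CAST (n = 2), 60.5% in CAST/B6 (n = 3) and 56.5% in matDKO/CAST (n = 1).

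Absence of DNMT3A and DNMT3B from the oocyte was compared with B6/CAST at E6.5 over the rest of the locus. In epiblast 9 of 56 windows were lower in matDKO/CAST and 0 higher (limma, Benjamini-Hochberg), against 27.8% and 0.0433% of all windows. The locus mean over these 56 windows was 64.0 ± 2.86% in matDKO/CAST (n = 2) and 75.7 ± 1.56% in B6/CAST (SD, n = 3). This is a difference of -11.7 points, and over all windows tested it was -16.6 points. At 23 of the 56 windows both matDKO/CAST libraries were below every B6/CAST library, against 49.4% of all windows, and at 2 they were above, against 0.784%. The count of 9 fell to 3 without the unnumbered B6/CAST epiblast library and to 4 without B6/CAST replicate 3. It was 0 with only the compared groups in the fit, and 0 with library means subtracted. matDKO/CAST epiblast replicate 3 lacked a value at 12 of the 72 windows.

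The called windows were 3 between Dlk1 and the IG-DMR, 2 in the Meg3 body, 3 in Rian and 1 between Rian and Mirg. In Rian, chr12:109649590-109658400 was at 73.6%, 90.6% and 100.0% in B6/CAST and at 61.5% and 40% in matDKO/CAST epiblast, a difference of -37.3 points (SE 8.17; limma, adjusted p = 0.0092). The Meg3 body window chr12:109560297-109563844 had the smallest adjusted p of the locus, 0.0033, and was at 89.2%, 88.2% and 87.7% in B6/CAST and at 59.0% and 59.9% in matDKO/CAST, a difference of -28.9 points (SE 4.55). Among the windows tested, the largest value in the other direction was 20.6 points, between Meg3 and Rtl1 (chr12:109585889-109590122, adjusted p = 0.0983 by limma). It was 13.0 points without matDKO/CAST replicate 3. Both Meg3 promoter windows were not tested, with 1 matDKO/CAST epiblast value each. These values were 57.9% and 56.5%, against B6/CAST epiblast means of 26.7% and 28.2%.

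In ExE 0 of 62 windows passed the adjusted threshold (limma, Benjamini-Hochberg, 0.0% of all windows), and 23 had an unadjusted p under 0.05, all lower in matDKO/CAST, against 26.5% of all windows lower and 0.0364% higher. The locus mean over these 62 windows was 51.4 ± 2.96% in matDKO/CAST (n = 3) and 65.5 ± 0.71% in B6/CAST (SD, n = 2). This is a difference of -14.1 points, and over all windows tested it was -12.2 points. All 3 matDKO/CAST libraries were below both B6/CAST libraries at 31 of 62 windows, against 47.7% of all windows, and above at 0. The stretch between Dlk1 and the IG-DMR differed by -19.04 points over 12 windows, Rian by -15.4 points over 8, Mirg by -7.65 points over 5 and Rtl1 by -4.29 points over 4. With both wild-type crosses as the control, 22 of 55 epiblast windows and 29 of 55 ExE windows passed the threshold, all lower in matDKO/CAST, against 56.3% and 52.7% of all windows called lower. In that comparison the maternal strain differs as well.

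The Dlk1 segment was low in every E6.5 group. It was at 31.4 ± 1.10% in B6/CAST, 34.2 ± 3.87% in CAST/B6 and 26.4 ± 8.92% in matDKO/CAST epiblast (SD, n = 3, 3 and 2). In ExE it was at 27.8 ± 0.83%, 32.8 ± 6.38% and 19.7 ± 3.62% (SD, n = 2, 2 and 3). Rtl1, in contrast, was at 87.0 ± 4.54%, 90.7 ± 1.34% and 77.4 ± 1.99% in epiblast and at 76.2 ± 1.69%, 82.5 ± 7.75% and 71.9 ± 5.52% in ExE, in the same order of crosses.

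**Figure D5:**
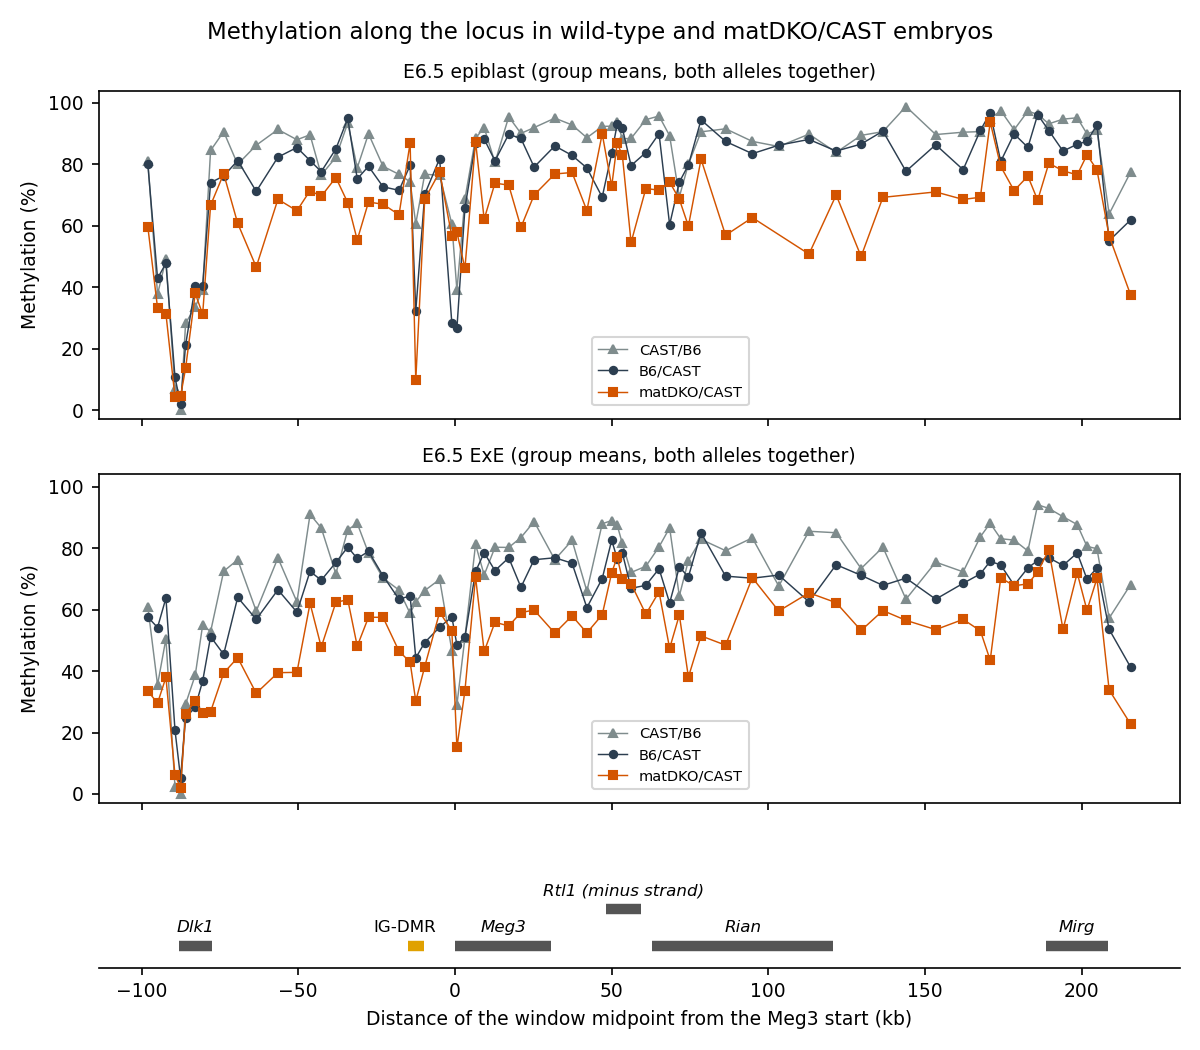
Methylation (%) of both alleles together against distance from the Meg3 start (kb) at E6.5, as group means of the libraries with a value, in epiblast (top) and ExE (middle), with the genes and the IG-DMR to scale below. The Dlk1 start is low in every group, and matDKO/CAST (orange squares) lies below the wild-type crosses over much of the locus. Over the windows tested between them, matDKO/CAST was at 64.0% against 75.7% in B6/CAST epiblast and at 51.4% against 65.5% in B6/CAST ExE.

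The reciprocal crosses were compared at E6.5 to see whether levels depended on which strain was the mother. In ExE both B6/CAST columns and neither CAST/B6 column carried a note of a second import, so cross and import cannot be told apart there. No window of the locus passed the adjusted threshold, 0 of 69 in epiblast and 0 of 64 in ExE (limma, Benjamini-Hochberg, 0.0% of all windows for both). At an unadjusted p under 0.05 there were 5 lower in B6/CAST and 0 higher in epiblast, against 16.1% and 0.158% of all windows, and 9 lower and 2 higher in ExE, against 23.6% and 0.261%. Over the windows tested, the locus was at 77.2 ± 1.35% in B6/CAST and 82.0 ± 1.14% in CAST/B6 epiblast (SD, n = 3). In ExE it was at 65.7 ± 0.07% and 72.7 ± 1.00% (SD, n = 2). These are differences of -4.83 and -6.94 points, and over all windows tested the differences were -8.77 and -12.1 points. Every B6/CAST library was below every CAST/B6 library at 9 epiblast windows and 27 ExE windows, against 24.3% and 54.3% of all windows. Among the windows tested, the largest difference was at Rian in epiblast, -29.0 points at chr12:109607514-109611533 (SE 8.05, Benjamini-Hochberg adjusted p = 0.188 by limma). The Meg3 promoter window chr12:109539111-109540936 lacked a B6/CAST epiblast value and was not tested. Its epiblast means were 28.2% in B6/CAST (n = 2) and 60.5% in CAST/B6 (n = 3).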

How the data were processed

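The data were bisulphite (PBAT) libraries of E6.5 and E7.5 hybrid embryos. The authors trimmed reads with Trim Galore 0.4.4, aligned them with Bismark 0.20.0 (PBAT mode) to GRCm38 with strain SNPs masked, and sorted E7.5 reads by allele with SNPsplit (versions from the submitters' processing notes). The paper describes a separate alignment for matDKO/CAST data that allowed for the mixed background of the mothers. How far mapping enters the matDKO/CAST comparisons was not tested. Bisulphite conversion at E7.5 was repeated because the first conversion was poor. The deposited values are percent methylation per window, in 3 tables: E6.5, E7.5, and E7.5 by allele. They come without coverage, so depth is unknown, and the rule for placing windows and the minimum of CpGs read are not given in the sources used here. A B6/CAST epiblast column matched its group but no single replicate number. A note of a second import, whose meaning is not given, stands in 5 column names. These are the unnumbered B6/CAST epiblast column, both B6/CAST ExE columns and matDKO/CAST ExE replicates 1 and 2.

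Windows were assigned to segments by their midpoint. limma 3.58.1 in R 4.3.3 (lmFit, eBayes, default settings) was fitted to percentages of all autosomal windows with a value in every library compared, and p-values were adjusted over all of them by the Benjamini-Hochberg method (threshold 0.05). For alleles the response was maternal minus paternal per library, with the cross coded with opposite signs. All E6.5 groups entered 1 fit, and the E6.5 and E7.5 tissue tests had the cross as a term. Each fit was tested on simulated data. Named are all IG-DMR and Meg3 promoter windows, gene start windows, windows past the threshold and the largest in each direction; other windows named beside them (the 2 flanking the IG-DMR, 5 in Dlk1, the first of the Meg3 body and 1 between Rian and Mirg) were chosen after their values were seen. The members and lists were chosen with earlier results of these data known. The alternatives were the logit scale, other eBayes settings, a replicate block, leaving out each library, no cross term, missing values, subtracted library means, other groups in the fit, both crosses as wild type, and other segment limits. Python 3.11.15, pandas 2.3.3 and pysam 0.24.0 were used, with GENCODE annotation.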

Additional observations from a re-analysis of the deposited data

How the results depend on the processing

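The counts of called windows in the locus depended on the settings. The 3 ExE parental calls became 0 with trended robust eBayes, with the replicate block, with 1 library allowed to be missing, and on leaving out each library (0 to 0), and remained 3 on the logit scale and without the cross term. The 2 epiblast calls became 0 on the logit scale, with trended robust eBayes, with 1 library allowed to be missing, and on leaving out each library (0 to 0), and remained 2 with the block. Over these settings the adjusted p of the first IG-DMR window ranged from 0.0093 to 0.894 in ExE. Same-numbered libraries did not deviate together (correlations of -5.47e-05 to 0.0506), so the block is only an alternative. The E6.5 tissue count of 25 became 0 with the block and 9 to 25 on leaving out a library: 9 without B6/CAST ExE replicate 1, 15 without replicate 2, 14 without CAST/B6 ExE replicate 2, 13 without CAST/B6 epiblast replicate 3 and 15 without the unnumbered library. With library means subtracted, the tissue calls turned to lower in epiblast, 32 at E7.5 and 7 at E6.5. The 9 matDKO/CAST epiblast calls became 4 on the logit scale, 0 with the block, 0 with library means subtracted, 0 with only the compared groups, 22 with both wild-type crosses, and 3 to 11 on leaving out a library; the 0 ExE calls became 29 with both wild-type crosses. The cause of these changes was not tested.

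Segment values moved with the limits. The IG-DMR difference was -57.8 points in ExE and -60.5 in epiblast with any overlap or with limits of 8 to 17 kb, under which IG-DMR to Meg3 became -8.40 and -5.36 points. The Meg3 promoter in ExE was -44.0 points with any overlap, and Rian in epiblast 8.64 points weighted by length. The Meg3 body in ExE ranged from 2.76 to 10.8 points on leaving out a library.

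Some single differences, none past the threshold except where given, changed sign. With library means subtracted, tissue differences at E7.5 became -6.24 (Meg3 promoter), -5.96 (Rtl1 and Rian starts, called before) and -9.68 points (Mirg start, called in both directions), those at E6.5 -1.19 (IG-DMR) and -9.38 (Mirg start), and the matDKO/CAST ExE difference at the Meg3 promoter 7.51. With both wild-type crosses the ExE window between IG-DMR and Meg3 became -2.92 points. The epiblast strain difference at the second IG-DMR window became 0.39 on the logit scale. Leaving out 1 library gave ranges of -7.02 to 3.66 points for that strain difference, -3.48 to 8.27 (strain, ExE, Meg3 start), -30.4 to 3.67 (strain, epiblast, before the IG-DMR), -0.20 to 17.3 (parental, epiblast, Rtl1 and Rian starts), -2.46 to 8.22 (interaction) and -5.90 to 0.42 (tissue, E7.5) at the second IG-DMR window, -0.58 to 9.78 and -9.73 to 1.18 (matDKO/CAST ExE, the window before Meg3 and the Meg3 promoter), and for the crosses -2.35 to 15.6 (Dlk1), -0.79 to 12.3 (IG-DMR) and -24.7 to 1.01 (Meg3 start) in epiblast and -9.34 to 20.8 (IG-DMR) in ExE. The tables used here hold no coverage, so how depth limits single windows is unknown.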
